A study of Mus musculus with 8 samples.

Results

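The genes examined here encode the ADAM and ADAMTS metalloproteinases, the lysyl oxidases and the proteins of the elastic fibre, compared between Lats2-/- and Lats2+/+ mouse embryonic fibroblasts (MEFs). They were taken by a rule on gene names: every gene probe named Adam and a digit, Adamts, Lox or Loxl and a digit, Fbln, Efemp or Mfap, together with Eln, Fbn1 and Fbn2. The rule took in 126 of the 41174 gene probes on the array, for 70 genes. Of these, 71 probes of 46 genes were bright enough to be tested, among 22642 such probes of 14791 genes. A probe counted as bright enough when 1 genotype had it clear of background in 2 or more of its 3 extracts, so that a gene expressed in 1 genotype only could also pass. The share of probes kept was 56.3% for these genes and 55% for the whole array. The name rule also took in genes with no known part in the matrix, such as Mfap1a, which encodes a splicing factor.

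ADAM proteins are membrane-bound and release the outer part of other membrane proteins, whereas ADAMTS proteins are secreted and cut proteoglycans and procollagens in the matrix. Elastic fibres form when elastin is laid onto microfibrils of fibrillin with the help of fibulins, and lysyl oxidases, which need copper, crosslink elastin and collagen. Fibroblasts use many of these proteins to build and remodel connective tissue, whereas some ADAM genes are expressed mainly in testis.

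RNA came from 3 litters, numbered 112, 116 and 121, with 1 Lats2-/- and 1 Lats2+/+ culture from each, all of strain C57BL/6J and left untreated in medium with serum. Lats2 encodes a kinase of the Hippo pathway, and the labels name no promoter or cell type to which its loss would be limited. Each culture carries its own clone name, so that genotype and culture cannot be told apart within a litter. Both extracts of a litter were hybridised together on 2-colour Agilent arrays with swapped dyes, with 2 arrays each for litters 112 and 116 and 4 for the third. All values below are log2 ratios of Lats2-/- over Lats2+/+ unless called signals, and the litter is the replicate (n = 3). Each array signal is on a log2 scale and is compared only for 1 probe across extracts. In bulk RNA, fewer cells of a type and less RNA per cell cannot be told apart.

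Some facts of the whole series bear on every value. The share of gene probes detected above background ran from 53.5% to 60.3% over the arrays for Lats2-/- RNA, and from 52.9% to 61.3% for Lats2+/+ RNA. One Lats2 probe was lower in Lats2-/- cells of every litter (-1.33, -1.05 and -0.56), but the other 3 probes of Lats2 were higher in litter 121, by 0.80 to 1.17. Litters 112 and 116 were hybridised on slide 1 and litter 121 on slide 2, so that slide and litter cannot be told apart for litter 121. All 5 fibroblast markers (Col1a1, Col1a2, Pdgfra, Thy1 and Vim) were expressed, but their ratios moved with the litter: Pdgfra was at 0.90, 0.13 and -4.96 and Thy1 at -0.38, 2.05 and -3.66 in litters 112, 116 and 121, while Col1a1 was at -0.50, 2.75 and -1.13, Col1a2 at -0.02, 1.84 and -0.72 and Vim at 0.08, -1.19 and -0.07. The log2 of the summed fibroblast marker signal was 17.6 to 18.6 in Lats2-/- extracts and 17.4 to 18.4 in Lats2+/+ extracts. For the 5 smooth muscle markers it was 16.8 to 18.0 and 14 to 17.7, with Tagln at -0.26, 4.10 and 0.12, Acta2 at -0.43, 3.16 and 0.49, Cnn1 at -2.32, 1.51 and 1.63, and Myh11 at -0.07, 0.07 and 0.02, while Des was not kept. Of 5 chondrocyte markers, the regulator Sox9 was at 0.71, 1.41 and -3.71, Col2a1 at 0.29, 2.53 and -0.40 and Acan at -0.01, -0.02 and 0.01 with signals near the floor of the array (6.55 to 6.82), and Matn1 and Col9a1 were not kept. Of 4 endothelial markers Tek alone was kept (-0.00, 0.02 and 0.16) and Pecam1, Cdh5 and Kdr were not. Of 4 macrophage markers Csf1r and Cd68 were kept, at ratios from -0.32 to 0.36, and Ptprc and Emr1 were not. None of 4 epithelial markers was kept, although Cdh1 was at 1.09 and Kdr at 0.50 in litter 121, each above background on 4 of 8 Lats2-/- arrays and 0 of 8 Lats2+/+ arrays. Of 3 adipocyte markers Pparg was at 2.66, -0.26 and 0.91, Fabp4 was at 0.32, -1.83 and -0.67, and Adipoq was not kept.

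Across the 3 litters no kept probe of these genes passed an adjusted p of 0.05 in limma, that is 0 of 71, and 0% of the 22642 probes tested did. Their adjusted p-values lay between 0.711 and 0.999. At an unadjusted p under 0.05, 7 of 71 probes (9.86%) differed: 5 were higher in Lats2-/- cells, against 3.56% of all probes, and 2 were lower, against 3.29%. The 5 higher probes belong to Adamts5, Adamtsl4, Efemp2, Loxl1 and Adam5, and the 2 lower ones are both of Mfap3l. The Adam5 probe passed the filter through its Lats2-/- extracts, so that its place in this count is no support. With a change of at least 2-fold asked for as well, 1 probe (1.41%) remained, that of Adamts5, where 0.636% of all probes were so called as higher and 0.199% as lower. This count was 2 without litter 112, 5 without litter 116 and 7 without litter 121, where over all probes it was 352, 260 and 373, against 189 with all litters. Adamts5 was in it each time. Ratios were above 0 in all 3 litters for 11 of 71 probes (15.5%), against 15% of all probes, and below 0 in all 3 for 7 (9.86%), against 14.8%. The share with 1 sign in every litter was thus close to that of the array for higher probes and below it for lower ones. Several probes can belong to 1 gene. At 1 probe per gene, 9 of 46 genes (19.6%) were above 0 in all 3 litters, against 15.9% of all genes tested. Below 0 in all 3 were 3 genes (6.52%), against 14.1%.

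The litters differed widely from one another for these genes. The median SD of a probe over the 3 litters was 0.60, against 0.25 over all kept probes, while the median SD between arrays of the same litter was 0.11 against 0.10. A change of at least 2-fold in some litter was seen for 36 of 71 probes (50.7%), against 13.3% of all probes, and 9 of 71 (12.7%) moved at least 2-fold up in 1 litter and at least 2-fold down in another, against 1.83%. The wild-type extracts alone also differed: the signal of a probe spanned more than 2-fold among the 3 Lats2+/+ extracts for 35 of 71 probes (49.3%), against 16.3% of all probes. These shares are descriptions with no test, and the level of expression, which was not matched, was not tested for its part in them. At 1 probe per gene, 30 of the 46 genes (65.2%) were higher in the mean, against 53.0% of all genes tested, and 16 lower, with a median of 0.19 against 0.01 over all genes tested. That median was 0.0733 without litter 116, 0.095 without litter 112 and 0.03 with no filter on brightness. By litter the median was 0.20, 0.21 and -0.06.

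**Figure D1:**
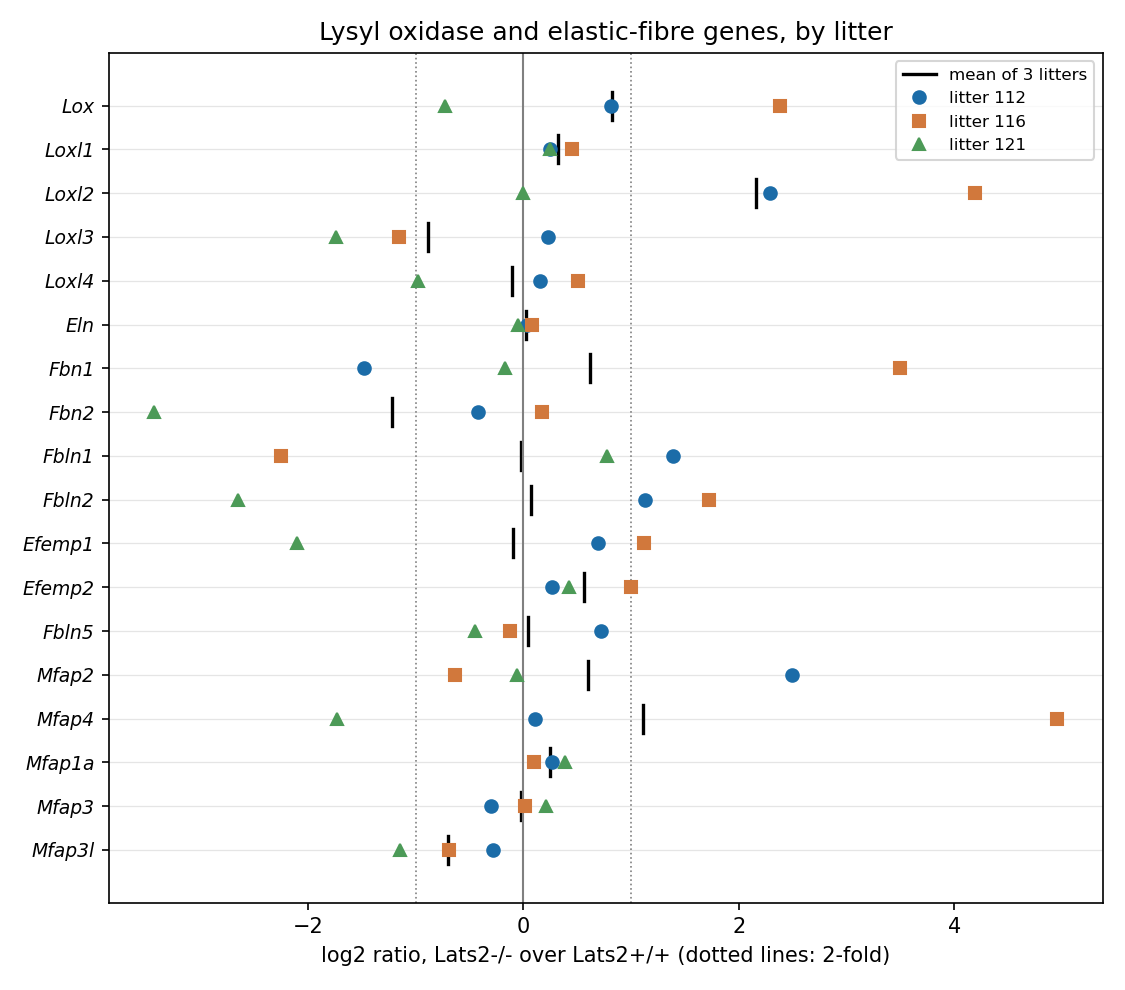
Log2 ratios of Lats2-/- over Lats2+/+ for the 18 kept lysyl oxidase, elastic-fibre and Mfap genes, 1 probe per gene, with a symbol for each of the 3 litters, a bar for their mean and dotted lines at 2-fold. Loxl2 reached 4.19 and Mfap4 4.96 in litter 116, while the litter 121 triangles lie below 0 for 13 of the 18 genes.

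The lysyl oxidases were mostly higher in Lats2-/- cells of litters 112 and 116 and lower in those of litter 121. All 5 genes had ratios above 0 in litter 112, but 4 did in litter 116 and 1 in litter 121, and the list had a median of 0.32, or 0.0431 without litter 116. Loxl2, which crosslinks collagens of the basement membrane, had the largest ratios. Litter 112 had signals of 10.96 in Lats2-/- and 8.67 in Lats2+/+ cells, litter 116 had 12.42 and 8.23, and litter 121 had 14.67 and 14.68. In the first pair of litters the Lats2-/- culture was thus far above its littermate, whereas in litter 121 both cultures were equally bright and above every other extract. The ratios were 2.29, 4.19 and -0.01, with a mean of 2.16 ± 2.10 (SD) and an unadjusted limma p of 0.0736. A second Loxl2 probe gave 2.54, 4.58 and 0.31. The mean of Loxl2 was 4.46-fold higher, and the mean was 3.24 without litter 121 and 1.14 without litter 116. Its wild-type extracts spanned 6.45 on the log2 scale, more than the difference between genotypes in any litter.

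Lox, the founding member, which crosslinks both collagen and elastin, followed the same order. The Lats2-/- signals of litters 112, 116 and 121 were 12.17, 13.23 and 12.91 and those of Lats2+/+ cells 11.36, 10.85 and 13.64, giving ratios of 0.81, 2.38 and -0.73 (mean 0.82 ± 1.55). That mean was 0.0431 without litter 116 and 1.6 without litter 121. The genotypes overlapped, because the brightest extract was the Lats2+/+ one of litter 121. Loxl1, which acts in the upkeep of elastic fibres, was the steadiest of the list: its ratios were 0.25, 0.45 and 0.25, with 8 of 8 arrays above 0. Its mean of 0.32 ± 0.12 is 1.25-fold higher, at an unadjusted limma p of 0.0426, which was 0.110 to 0.142 without any 1 litter. With all litters that p was 0.0665 with an offset of 16, 0.116 with the processed signals of the scanner software, 0.0770 with median centring and 0.245 with the pairing dropped. Loxl3 was at 0.23, -1.15 and -1.74, and Loxl4 at 0.16, 0.51 and -0.98, so that both were at their lowest in litter 121.

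Elastin and the fibrillins kept no direction over the litters, with 1 of the 3 genes above 0 in litter 112, 3 in litter 116 and 0 in litter 121. The Eln probe gave 0.03, 0.08 and -0.05 at a mean log2 signal near the floor of the array (6.42 to 6.51 in every extract), so that a difference in elastin mRNA was hardly detectable with it. Fbn1, the main fibrillin of the microfibril, changed in opposite directions. Its signals were 9.61, 13.08 and 12.79 in the Lats2-/- cultures of litters 112, 116 and 121 and 11.08, 9.58 and 12.96 in their Lats2+/+ littermates. The ratios were therefore -1.48, 3.49 and -0.17, and a second probe gave -1.2, 2.83 and -0.29. Fbn2, a fibrillin used above all in the embryo, was at -0.42, 0.18 and -3.43. In litter 121 the signal was 11.82 in Lats2+/+ and 8.40 in Lats2-/- cells, where the wild-type cultures of the other litters were at 6.92 and 6.62. The spread of each fibrillin over litters exceeded its mean (0.61 ± 2.58 for Fbn1 and -1.22 ± 1.93 for Fbn2).

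Fibulins bind elastin and fibrillin and guide fibre assembly, and 4 of the 5 changed sign between litters. Efemp2 (fibulin-4), which tethers lysyl oxidase to elastin, was the exception, at 0.26, 1.0 and 0.42 and above 0 on 8 of 8 arrays. Its mean was 0.56 ± 0.39, or 1.48-fold higher, at an unadjusted limma p of 0.0421, which was 0.0541 to 0.0892 without any 1 litter and 0.0586 with the processed signals. The methods' t-test gave an unadjusted p of 0.129 for it. Fbln2 was at 1.13, 1.72 and -2.65. Its signals were 15.35, 16.09 and 12.85 in the Lats2-/- cultures and 14.22, 14.37 and 15.50 in the Lats2+/+ cultures. The Lats2-/- culture of litter 121 was the dimmest of the 6 extracts, although both other Lats2-/- cultures were brighter than their littermates. Efemp1 (fibulin-3) had the same order, at 0.69, 1.12 and -2.10. In litter 116 its Lats2+/+ extract was not well above background, so that the difference there was at least 2.18-fold. Fbln1 was also higher in litter 112 but ran the other way in litters 116 and 121, at 1.39, -2.25 and 0.78. A second Fbln1 probe gave 0.92, -1.84 and 1.0. Fbln5, which deposits elastin on microfibrils, was at 0.72, -0.12 and -0.45.

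The 2 kept microfibril-associated glycoproteins, Mfap4 and Mfap2, had their largest ratios in different litters. Mfap4, a fibrinogen-related matrix protein, had signals of 12.65 in Lats2-/- and 7.69 in Lats2+/+ cells of litter 116, the largest ratio of all genes examined here at 4.96. It was at 0.11 in litter 112 and -1.73 in litter 121, so that its mean of 1.11 had an SD of 3.45. Mfap2, a core component of fibrillin microfibrils, was at 2.49, -0.64 and -0.06. Its litter 112 ratio came with a low wild-type signal of 6.65, where every other extract lay between 9.15 and 11.24. A dimmer Mfap2 probe gave 0.72, -0.50 and -0.00, with its wild-type extract in litter 112 not above background. Mfap5 was well above background on 3 of 8 Lats2-/- arrays and 0 of 8 Lats2+/+ arrays and was not tested.

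The other kept Mfap genes were Mfap3l, Mfap1a and Mfap3. Mfap3l, a transmembrane protein, had ratios below 0 on 8 of 8 arrays by each of its 3 probes. The dimmest of these passed the filter through its Lats2+/+ extracts, so that its agreement is not read as support. On it the Lats2-/- extracts were above background on 2, 0 and 1 arrays of litters 112, 116 and 121, and the Lats2+/+ extracts on 2, 2 and 4. The brightest probe gave -0.28, -0.69 and -1.14, a mean of -0.70 ± 0.43 (1.63-fold lower) at an unadjusted limma p of 0.0274. With the processed signals of the scanner software its mean was -1.54, and its unadjusted limma p was 0.0792 without litter 121, 0.0916 without litter 116 and 0.242 with the pairing dropped. The methods' t-test gave an unadjusted p of 0.105. The other probes had means of -0.45 and -0.28. The signals in Lats2-/- and Lats2+/+ cells were 8.34 and 8.62, 6.93 and 7.62, and 6.47 and 7.61 in litters 112, 116 and 121, so that the genotypes overlapped only across litters. Mfap1a was at 0.26, 0.10 and 0.38 and Mfap3 at -0.30, 0.02 and 0.21.

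Over the 18 lysyl oxidase, elastic-fibre and Mfap genes together, litter 112 had 14 with ratios above 0, litter 116 had 13 and litter 121 had 5, with medians of 0.26, 0.31 and -0.31. Of all 14791 genes tested, 7729, 7495 and 7524 were above 0 in these litters. The order of higher in litters 112 and 116 and lower in litter 121 was shown by 7 of the 18 genes: Lox, Loxl2, Loxl4, Eln, Fbln2, Efemp1 and Mfap4. By probe this was 7 of 25 (28%), against 12.6% of all kept probes. The order was picked after the values were seen, and Loxl2 and Eln lay so near 0 in litter 121 that their place in it rests on the sign alone. In litter 121 the ratios of all 5 fibroblast markers were below 0, from -0.07 for Vim to -4.96 for Pdgfra, while the kept chondrocyte markers were at -3.71 (Sox9), -0.40 (Col2a1) and 0.01 (Acan). Their part in the order was not tested.

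**Figure D2:**
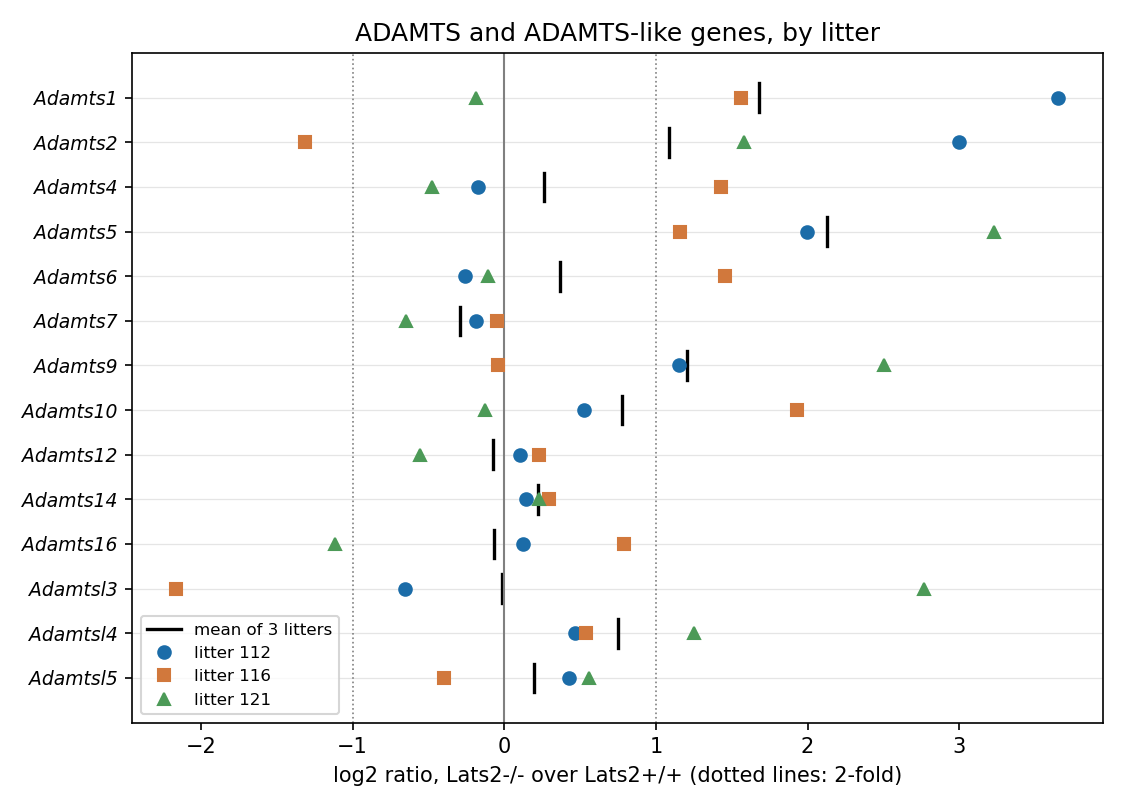
Log2 ratios of Lats2-/- over Lats2+/+ for the 14 kept ADAMTS and ADAMTS-like genes, 1 probe per gene, with a symbol for each of the 3 litters, a bar for their mean and dotted lines at 2-fold. Adamts5 is the gene with all 3 litters beyond 2-fold on the same side, at 1.16 to 3.23.

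The ADAMTS proteinases that cut aggrecan and versican included Adamts5, the one member at least 2-fold higher in every litter. This gene, the main aggrecanase of mouse cartilage, had signals of 10.72, 10.95 and 14.81 in the Lats2-/- cultures of litters 112, 116 and 121 and of 8.73, 9.79 and 11.58 in their Lats2+/+ littermates. The Lats2-/- culture was the brighter one in every litter, although the wild-type culture of litter 121 was brighter than the Lats2-/- cultures of the other litters. The ratios were 2.0, 1.16 and 3.23, and all 8 arrays lay between 1.08 and 3.28. The mean was 2.13 ± 1.04, or 4.37-fold higher, at a limma p of 0.00972, or 0.711 once adjusted. Without 1 litter the mean was 1.58 to 2.61 and the unadjusted limma p 0.00785 to 0.0443. Left unpaired, the 6 extracts gave an unadjusted limma p of 0.145, and the methods' t-test gave an unadjusted p of 0.0713. A second, dimmer probe gave 0.91, 0.54 and 2.97 (p of 0.0591 in limma, unadjusted).

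Adamts1, which cleaves the same proteoglycans, lies next to Adamts5 on chromosome 16 in mm8, with its probe at chr16:85683995-85684054 and that of Adamts5 at chr16:85751628-85751687, both on the minus strand and 67573 bases apart. Its ratios were 3.65, 1.56 and -0.19, so that it was higher along with Adamts5 in litters 112 and 116 but not in litter 121. The signals of Adamts1 show which side varied. They were 14.05, 13.77 and 13.75 in the Lats2-/- cultures and 10.40, 12.20 and 13.94 in their wild-type littermates. The Lats2-/- extracts thus lay within 0.30 of each other on the log2 scale and the Lats2+/+ extracts spanned 3.54. The mean was 1.68 ± 1.92 at an unadjusted limma p of 0.109. That mean was 0.69 without litter 112 and 2.61 without litter 121, and a second probe gave 2.86, 1.2 and -0.19. Neither a common control of the pair nor an effect of their position was tested.

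Adamts9 was at 1.15, -0.04 and 2.51, from Lats2-/- signals of 8.38, 7.90 and 9.50 and Lats2+/+ signals of 7.23, 7.94 and 6.99, so that 1 of the 3 wild-type extracts reached the level of a Lats2-/- extract. Adamts4, the other classical aggrecanase, was at -0.18, 1.43 and -0.48. The 4 kept genes of this class were higher in the mean, with a median of 1.44, but that median was 0.96 without litter 112 and 0.90 with no filter on brightness, and Adamts5 alone was above 0 in every litter. Adamts8 was not kept because it was above background in litter 116 only: there its probes gave 2.62 and 2.01, the second of them at least 4.04-fold higher with no wild-type array above background. Adamts15 and Adamts20 were not kept.

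Among the procollagen N-proteinases, which remove the amino-terminal propeptide of fibrillar collagens, Adamts2 was the variable one. Its signals were 11.95, 9.68 and 11.70 in the Lats2-/- cultures and 8.95, 11.0 and 10.12 in the Lats2+/+ cultures of litters 112, 116 and 121. The ratio was thus -1.31 in litter 116, against 3.0 and 1.58 in litters 112 and 121. All 4 kept probes of Adamts2 had this order of signs, with means from 0.16 to 1.09. The dimmest passed the filter through its Lats2-/- extracts, so that its agreement is not read as support. On it the Lats2+/+ extracts of litters 112 and 121 were not above background, and on the next dimmest that of litter 112 was not. The mean of the brightest, 1.09, was 0.14 without litter 112 and 2.29 without litter 116. Adamts14 was at 0.15, 0.29 and 0.23, above 0 on 8 of 8 arrays with a mean of 0.22 ± 0.07. Adamts3 was not kept.

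The remaining ADAMTS genes had a median of -0.07 over the 5 kept of 8, which was 0.56 with the processed signals and 0.0387 with an offset of 16. Adamts10, which binds fibrillin microfibrils, was at 0.52, 1.93 and -0.13, and Adamts6 at -0.26, 1.46 and -0.11, so that both had their highest ratio in litter 116. Adamts7 was at -0.19, -0.05 and -0.65. Adamts12 and Adamts16 had only bounds in litter 116, where their Lats2+/+ extracts were not well above background and the Lats2-/- extract was the brighter by at least 1.17-fold for Adamts12 and at least 1.73-fold for Adamts16. In litter 121 both were lower, at -0.56 and -1.12, and their means were -0.08 and -0.07. Adamts16 was not above background in either extract of litter 112, so that its mean includes an undetected litter and a bound. The ADAMTS-like proteins lack the proteinase domain. Of these, Adamtsl4, a microfibril-binding protein, was higher in each litter at 0.47, 0.54 and 1.25, and on 8 of 8 arrays. Its Lats2-/- and Lats2+/+ signals were 7.43 and 6.97, 8.69 and 8.15, and 9.65 and 8.40. The mean of 0.75 ± 0.43 is 1.68-fold higher, at an unadjusted limma p of 0.0228, which was 0.0513 without litter 116 and 0.286 with the pairing dropped. The methods' t-test gave an unadjusted p of 0.0954 for it. Adamtsl3 was at -0.65, -2.16 and 2.77, which cancelled to a mean of -0.02. For Adamtsl5 the probes disagreed in litter 112, with 0.43 on the brightest and -1.47 on another.

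**Figure D3:**
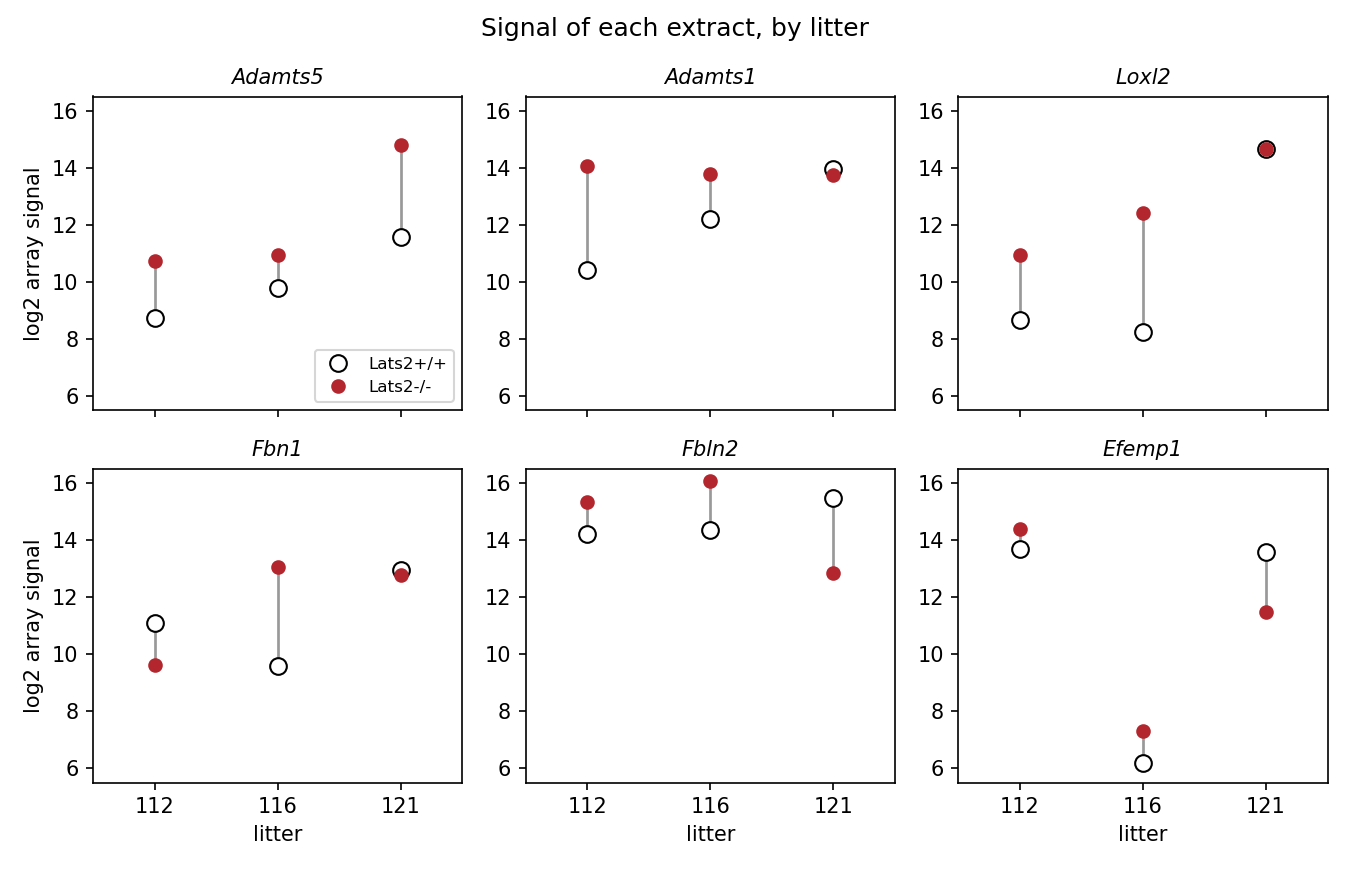
Log2 array signals of the Lats2+/+ extract (open circles) and the Lats2-/- extract (filled circles) of each litter for 6 genes, joined by a line within a litter; signals are comparable within a panel only. Adamts5 is higher in Lats2-/- cells in each litter, the Lats2-/- extracts of Adamts1 lie within 0.30 of each other, and Fbln2 and Efemp1 turn over in litter 121.

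The window before the transcription start was searched for CATTCC on either strand (read as GGAATG on the other), the core of the site bound by TEAD factors, the DNA-binding partners of the Hippo effectors YAP and TAZ. The RefSeq promoter table held 36 of the 70 genes, and Adamts5, Loxl2, Loxl1 and Lox are not among them. The motif was found in 4 of the 36 (11.1%), against 16.6% of the 27025 genes of the table, in windows of 250 bases before and 50 after the start. It was found in Adam19, Adam1a, Adamts13 and Mfap2. Shown here are the 250 bases before the start of Adamts1, the gene of this table with the largest mean ratio, which has no match. Also shown are the matching windows of Mfap2 and Adam19, which changed at least 2-fold in 1 litter each. Sequences are 5′ to 3′ on the strand of the gene in build GRCm38.p6 of RefSeq, at chr16:85803114-85803363 (minus strand), chr4:141010174-141010423 (plus) and chr11:46055734-46055983 (plus), with capitals for the motif. A match describes the letters alone.
Adamts1: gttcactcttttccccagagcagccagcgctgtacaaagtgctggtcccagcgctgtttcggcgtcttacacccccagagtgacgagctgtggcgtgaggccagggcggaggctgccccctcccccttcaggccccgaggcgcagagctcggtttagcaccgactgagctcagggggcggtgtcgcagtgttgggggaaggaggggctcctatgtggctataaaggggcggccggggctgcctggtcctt
Mfap2: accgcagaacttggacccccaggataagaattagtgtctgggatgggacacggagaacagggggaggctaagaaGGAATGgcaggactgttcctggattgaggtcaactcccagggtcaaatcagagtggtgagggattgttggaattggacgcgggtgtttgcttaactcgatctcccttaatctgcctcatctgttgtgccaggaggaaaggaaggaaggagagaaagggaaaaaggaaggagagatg
Adam19: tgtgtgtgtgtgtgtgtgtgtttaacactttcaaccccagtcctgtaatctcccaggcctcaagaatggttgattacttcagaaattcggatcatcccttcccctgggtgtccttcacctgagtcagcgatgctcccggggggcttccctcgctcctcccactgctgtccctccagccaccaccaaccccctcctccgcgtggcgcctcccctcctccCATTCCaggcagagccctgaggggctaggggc

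Most of the membrane-bound ADAM proteinases had small ratios in every litter. Adam10, which cleaves Notch receptors and many adhesion proteins, was at 0.18, -0.21 and 0.03, and Adam17, which releases tumour necrosis factor and EGF receptor ligands, at 0.50, 0.19 and -0.15. The median of the 9 genes of this class was 0.18, or 0.0194 without litter 112 and 0.0165 without litter 116, with 6 higher and 3 lower in the mean. Adam15 was above 0 on 8 of 8 arrays by its brightest probe, at 0.26, 0.23 and 0.16, but on 4 of 8 by its second, at 0.24, 0.05 and -0.03, and Adam9 was at 0.00, 0.27 and 0.51. Adam12, expressed in mesenchyme, was at -0.44, -0.12 and -0.75, with a mean of -0.44 ± 0.31 at an unadjusted limma p of 0.0562. The large ratios were again in litter 116, where Adam33 reached 2.59, Adam19 1.29 and Adam8 -2.08, against values between -0.36 and 0.32 for these genes in the other litters. Adam33 was near the floor of the array in litters 112 and 121 (signals of 6.23 to 6.44), so that a difference there was hardly detectable. Dimmer Adam33 probes, which were not kept, gave 4.12 and 1.57 in litter 116. In litter 116 the smooth muscle markers Acta2, Tagln and Cnn1 were at 3.16, 4.10 and 1.51, but Myh11 was at 0.07. Des was not kept. Of the fibroblast markers there, Col1a1, Col1a2 and Thy1 were at 2.75, 1.84 and 2.05, Pdgfra was at 0.13 and Vim at -1.19. The part of these markers in the ADAM values was not tested.

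Of the 19 other ADAM genes, 5 were kept. Adam23, which lacks proteinase activity and binds secreted LGI proteins, was at 1.59, -1.37 and -0.23, and its second probe at 1.16, -0.88 and -0.36. Adam5 was at 1.07, 0.41 and 0.30 and above 0 on 8 of 8 arrays, with a mean of 0.59 ± 0.42 at an unadjusted limma p of 0.0424, which was 0.0527 to 0.0995 without any 1 litter and 0.121 with the pairing dropped. The methods' t-test gave an unadjusted p of 0.133. It was dim and passed the filter through its Lats2-/- extracts, so that its p is not read as support: its Lats2+/+ extract was above background on 2, 1 and 0 arrays of litters 112, 116 and 121, and its signals lay between 6.16 and 7.67, with only a bound of at least 1.22-fold in litter 121, and its mean was 1.77 with the processed signals of the scanner software. A second Adam5 probe gave 0.12, 0.20 and -0.10, but it was above background on 0 of 8 arrays in either genotype and was not kept. Adam1a was at 0.25, -0.43 and 0.35, Adam11 at 0.06, -0.11 and -0.15, and Adam3 at 0.00 in the mean. The genes with no kept probe numbered 24: Adam1b, Adam2, Adam4, Adam6, Adam7, Adam18, Adam21, Adam22, Adam24, Adam25, Adam26a, Adam29, Adam30, Adam32, Adamts3, Adamts8, Adamts13, Adamts15, Adamts18, Adamts19, Adamts20, Adamtsl1, Adamtsl2 and Mfap5.

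**Figure D4:**
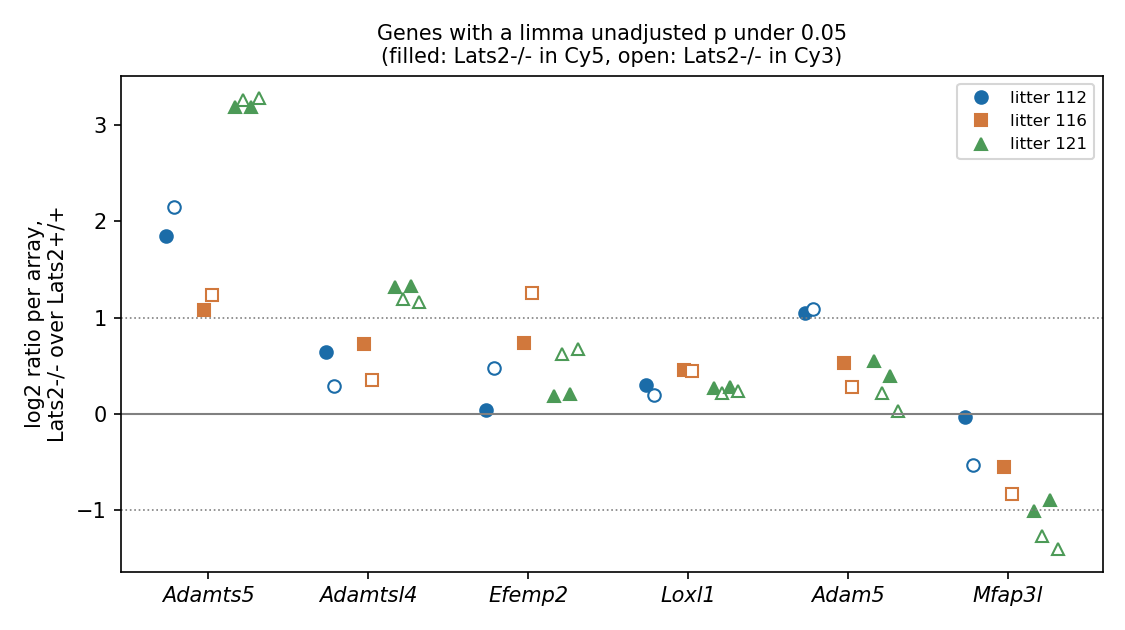
Log2 ratio on each of the 8 arrays for the 6 genes with an unadjusted limma p under 0.05, by litter, with filled symbols for Lats2-/- in Cy5 and open symbols for Lats2-/- in Cy3; arrays of a litter share the same extracts. Ratios are above 0 on 8 of 8 arrays for Adamts5, Adamtsl4, Efemp2, Loxl1 and Adam5 and below 0 on 8 of 8 for Mfap3l.

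Adamts5 apart, the genes called at an unadjusted p under 0.05 had folds of 1.25 to 1.68 in either direction.

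Partners, inhibitors and substrates of these proteins were read from a list of 46 genes, of which 37 were kept. At an unadjusted p under 0.05 in limma, 3 were higher (3.56% of all probes were) and 1 was lower (3.29% of all probes were), and 0 passed the adjusted threshold. Timp3, the matrix-bound inhibitor of ADAM and ADAMTS proteinases, was at 0.69, 1.07 and 1.69 with a mean of 1.15 ± 0.50 (unadjusted limma p of 0.00842). It was the single gene of the list at least 2-fold changed at that p. Like Adamts5 it was highest in litter 121, though Adamts5 was lowest in litter 116 and Timp3 in litter 112. Tspan17, a tetraspanin that binds ADAM10, was at 0.65, 0.71 and 1.39, and Atp7a, the copper pump that loads lysyl oxidases, at 0.29, 0.69 and 0.76. Ltbp1, which ties latent TGF-β to microfibrils, was lower at -0.47, -0.62 and -0.23.

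Other microfibril and substrate genes had large ratios in 1 or more litters. Ltbp2 was at 1.64, 2.33 and -2.60, the order of Fbln2 and Efemp1, and Emilin1 and Emilin2, elastin-associated glycoproteins, were at -1.89 and -2.36 in litter 121. The versican gene Vcan, a substrate of Adamts1, Adamts5 and Adamts9, was at 0.23, 3.56 and 0.43. Col3a1, a substrate of Adamts2, was at 0.13, 3.70 and -3.42, while Adamts2 itself was lowest in litter 116.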

How the data were processed

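The authors hybridised 8 Agilent 2-colour arrays (design 14868) and extracted them with Feature Extraction, version 10.5.1.1 per the submitters' processing notes and 10.7.3.1 by the headers of the files. In the deposited scanner output there is the intensity of each spot and of its local background, linear and not normalized. They also give, per the file headers, processed intensity values and a log10 ratio of red over green. The deposited value table holds log10 ratios that differed from the scanner ratios by at most 0.005 once turned to Lats2-/- over Lats2+/+, with a median of 0 in each column.

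Mean intensity was background corrected in limma 3.58.1 (R 4.3.3) with normexp and an offset of 50, which shrinks the ratios of dim probes. Control spots and 860 outlier spots were left out, none of them of the genes reported here, and no gene spot was saturated. Ratios were normalized by loess within arrays, turned to Lats2-/- over Lats2+/+, and averaged over spots and then over the arrays of a litter, since these share extracts. The 3 litter ratios were tested against 0 with lmFit and eBayes, two-sided, with Benjamini-Hochberg adjustment over 22642 probes. The pairing of genotypes within litter comes from the labels and the shared arrays. Signals per extract followed Aquantile normalization. Where no array of an extract was well above background, the fold is a bound, set against the dimmest signal that any detected probe had on that array, or against the probe itself where it was brighter. The fit was tested on simulated data. Precision is limited by how few arrays and litters there are, and p-values measure the spread between 3 litters.

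The members and lists were chosen with earlier results of these data known. Genes are named by the file's symbols, and 96 of the 126 member probes matched a RefSeq accession, 95 of them under the same symbol. Fbln7 and Adam6b carry clone names in the files and were therefore missed by the rule. The genes named with values were all lysyl oxidases, elastin, fibrillins, fibulins and microfibril-associated glycoproteins, Adam10, Adam17, Adamts1 to 5, Adamts9 and Adamts14, and any other member with an unadjusted p under 0.05, at least 2-fold in every litter on 1 side, at least 2-fold in opposite directions in 2 litters, or with kept probes differing by over 1 in the mean. Other members are named to give ranges, after their values were seen. Values are of the brightest kept probe unless stated. Alternatives were other offsets, signals, centring, filters, tests and blocks, and leaving out each litter. A planned search of protein sequences for motifs was not run. Probe positions are in mm8 as the files give them.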

Additional observations from a re-analysis of the deposited data

How the results depend on the processing

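No probe of these genes passed the adjusted threshold in the 8 settings that change the background correction, signals, centring, filter, test or pairing, or without any 1 litter. With all 8 arrays in the fit, which share extracts within a litter, the count was 1 with the litter as a random block (341 over the whole array), 1 with a dye term added to it (202) and 4 with the slide as a random block (717). Adamts5 was among those called, at adjusted limma p-values of 0.00746, 0.0134 and 0.00742, against 0.711 with the litter as the replicate. Arrays of a litter are not separate cultures, so that these smaller values are not read as support. The count of probes changed 2-fold or more at an unadjusted p under 0.05, 1 as reported (189 over the whole array), was 3 with an offset of 16 (305), 6 with the processed signals (551), 6 with the value table (545), 2 with the strict filter (159), 0 with the methods' t-test (71), 8 with the litter block (413), 7 with the slide block (441) and 8 with the dye term (399), and 2 to 7 without 1 litter (260 to 373). The count with an unadjusted p under 0.05, 7 as reported (1549 over the whole array), was 10 with an offset of 16 (1501), 9 with processed signals (1508), 11 with no filter (2623), 4 with the methods' t-test (1347), 20 with the litter block (2999), 22 with the slide block (4029), 16 with the dye term (2852) and 6 to 10 without 1 litter (1145 to 1458). Without the replicate block, that is with the pairing dropped, it was 2 (554). With no filter the median over the genes was 0.03, where it was 0.19 as reported.

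Some means changed sign. With an offset of 16, Efemp1 became 0.12 and Fbln1 0.0088. With processed signals Efemp1 became 0.97, Eln -0.007 and Fbln1 0.0191, and they were 0.97, -0.0069 and 0.0194 with the value table. With median centring Fbln2 became -0.0017, and with the litter block Adamtsl3 became 0.0177. With the slide block Adam10 became 0.0066, Adamtsl3 0.68, Fbln1 0.18, Fbln2 -0.61 and Fbln5 -0.0782. Leaving out each litter in turn gave means from -0.0902 to 0.10 for Adam10, -0.80 to 0.68 for Adam23, -0.33 to 0.63 for Adamts4, -1.41 to 1.06 for Adamtsl3, -0.71 to 0.91 for Efemp1, -0.0102 to 0.0552 for Eln, -0.735 to 1.09 for Fbln1, -0.76 to 1.43 for Fbln2, -0.29 to 0.30 for Fbln5, -0.83 to 1.66 for Fbn1, -0.41 to 0.33 for Loxl4, -0.35 to 1.22 for Mfap2 and -0.81 to 2.53 for Mfap4. The cause was not tested.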
